A study of Mus musculus with 40 samples.

Results

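The regions described here are stretches of mouse DNA from which reporter-positive fragments were recovered in hemangioblast (HB) cells and at no other stage of a blood differentiation series. Overlapping fragments of all 40 libraries were merged into 75060 regions. A region was called HB-only when it held 2 or more different fragments in the Low, Medium or High libraries of HB, with replicates pooled, and none in those libraries of the other 4 stages. This gave 717 regions, 0.955% of all regions and 8.36% of the 8574 regions with 2 or more HB fragments. The readout itself chose the members, so their presence in HB and absence elsewhere is a description and carries no test.

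The screen used HM-1 mouse embryonic stem cells of strain 129/ola, in which open-chromatin fragments cut out by the transposase Tn5 at 5 stages were placed before the HSP68 minimal promoter and the yellow fluorescent reporter Venus-YFP. Each cassette was integrated at the Hprt locus, which is not functional in HM-1 cells and is repaired by the insertion. The pooled cells were differentiated in serum and sorted as undifferentiated cells (ES), HB, an earlier and a later hemogenic endothelium (HE1 and HE2, endothelium with blood potential) and progenitors of blood (HP), each into Negative, Low, Medium and High YFP gates in 2 replicates. All groups thus share the strain, the Hprt repair and the mixture of cloned fragments from 5 stages. HB cells were selected on the receptor FLK1 alone, HE1 as KIT+ TIE2+ CD41-, HE2 as KIT+ TIE2+ CD41+ and HP as KIT+ TIE2- CD41+. Every fragment was read at the Hprt locus before a heat-shock promoter, not at its own locus. These libraries hold cloned DNA and no transcripts, so the cell type named in a label could not be checked against marker expression.

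The hemangioblast is a mesodermal progenitor that can give rise to both endothelial and blood cells, and FLK1, the receptor for vascular endothelial growth factor, marks it. From it, endothelial cells with blood potential form under the control of factors of the ETS, GATA, TAL1 and RUNX families. An enhancer is a DNA element that raises transcription from a promoter when the factors that bind it are present, and many enhancers act in 1 cell type only.

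The sequences shown first are those of the best-covered HB-only regions, as they are the ones with most separate fragments behind them. Each is the central 200 bases of a region more than 1500 bp from any start site and outside exons, on the plus strand of mm10, read from the GRCm38 reference. Capitals mark matches to any of 16 factor motifs searched on both strands.
near Hivep1, chr13:42049603-42049802: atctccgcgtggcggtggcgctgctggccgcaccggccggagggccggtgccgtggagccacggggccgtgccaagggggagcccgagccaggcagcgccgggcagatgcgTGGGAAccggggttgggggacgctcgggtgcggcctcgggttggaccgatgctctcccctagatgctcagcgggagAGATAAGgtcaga
near Dusp4, chr8:34804983-34805182: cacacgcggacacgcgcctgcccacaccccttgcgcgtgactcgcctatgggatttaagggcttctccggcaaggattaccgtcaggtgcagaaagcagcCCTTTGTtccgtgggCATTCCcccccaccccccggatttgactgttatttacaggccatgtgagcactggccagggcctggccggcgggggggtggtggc
near Tmem119, chr5:113797084-113797283: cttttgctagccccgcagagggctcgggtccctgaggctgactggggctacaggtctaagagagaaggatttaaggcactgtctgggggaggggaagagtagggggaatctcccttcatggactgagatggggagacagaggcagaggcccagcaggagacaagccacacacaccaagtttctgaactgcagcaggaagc
near Tle3, chr9:61369476-61369675: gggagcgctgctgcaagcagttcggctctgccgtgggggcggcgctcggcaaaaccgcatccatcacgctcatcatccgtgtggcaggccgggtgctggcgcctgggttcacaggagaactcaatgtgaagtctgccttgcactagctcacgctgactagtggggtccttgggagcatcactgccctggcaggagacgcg
near Syt16, chr12:74009345-74009544: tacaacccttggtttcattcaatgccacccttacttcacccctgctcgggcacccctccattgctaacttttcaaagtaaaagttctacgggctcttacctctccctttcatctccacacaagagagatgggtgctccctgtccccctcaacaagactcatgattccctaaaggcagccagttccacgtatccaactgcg
near Mocs3, chr2:168252684-168252883: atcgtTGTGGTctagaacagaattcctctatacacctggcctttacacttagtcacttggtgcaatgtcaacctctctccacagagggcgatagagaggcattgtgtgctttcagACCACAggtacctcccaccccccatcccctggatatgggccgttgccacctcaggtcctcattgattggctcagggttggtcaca

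In the window near Hivep1 the capitals are an RBPJ match (TGGGAA) and a GATA match (AGATAAG). In the window near Dusp4 they are a SOX match (ACAAAGG) and a TEAD match (GGAATG), both on the minus strand. The window near Mocs3 held 2 RUNX matches (TGTGGT), 1 on each strand, and the windows near Tmem119, Tle3 and Syt16 held no match to the letters searched. Such short matches are common: over all region windows RBPJ was found in 19.9%, RUNX in 16.5%, TEAD in 13.0%, SOX in 8.51% and GATA in 4.11%.

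The fragments behind most HB-only regions were few. Over the 717 regions there were 1722 different HB fragments. Exactly 2 fragments were found in 538 regions, 3 in 115, 4 in 37, 5 in 16, 6 in 6, 7 in 3 and 8 in 2. The values just outside the rule were of the same size. A further 7368 regions were seen in HB alone but with 1 fragment, and 416 regions with 2 or more HB fragments missed the rule by exactly 1 positive fragment of another stage. That fragment was found in ES in 209, in HE1 in 121, in HE2 in 88 and in HP in 80 of these regions, since the same fragment could be recovered at more than 1 stage.

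Some of these fragments had nearly the same ends. The lists hold unique fragments after 25 to 30 cycles of PCR with no molecular identifiers. Whether 1 cloned insert appears as several entries with slightly shifted ends was not tested. When fragments with both ends within 5 bp were counted once, 225 of the 717 regions (31.4%) rested on a single separate fragment and 492 kept 2 or more. Regions picked by the same rule for another stage had shares of 36.4% (ES), 42.5% (HE1), 12.1% (HE2) and 46.5% (HP). Within the HB-only regions the replicates differed widely in this. Among the 442 regions seen in replicate 1 only, 21 (4.75%) rested on 1 separate fragment. Among the 239 seen in replicate 2 only, 204 (85.4%) did. HB fragments of both replicates were found in 36 regions (5.02%).

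**Figure D1:**
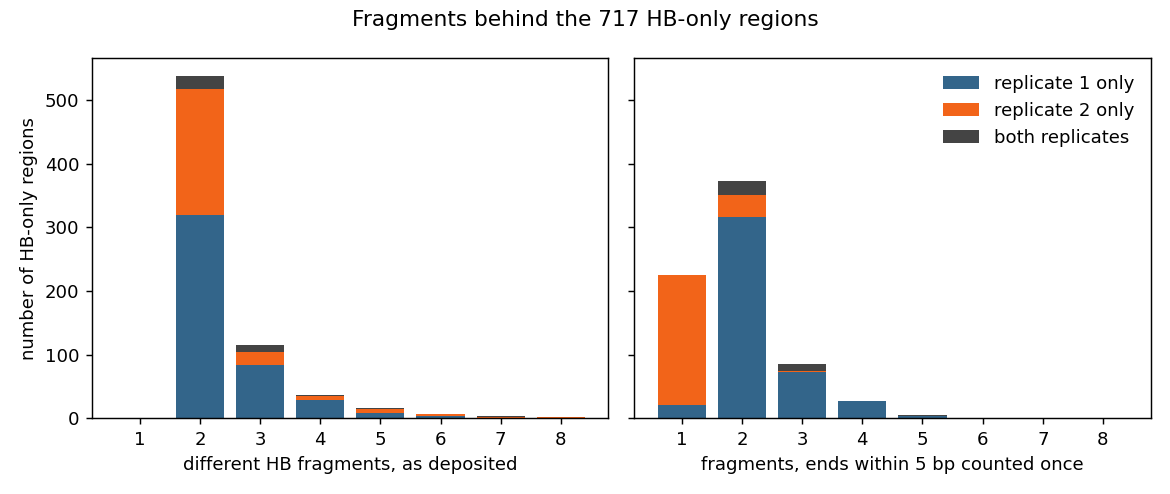
Number of HB-only regions by the number of HB fragments they hold, as deposited (left) and with fragments whose ends lie within 5 bp counted once (right); colours give the replicate. The 239 regions of replicate 2 lie mostly at 2 fragments on the left and at 1 separate fragment on the right, where 204 of them stand.

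The HB-only status was then tested in the replicate that had not been used to assign it. Applied to replicate 1 alone, the rule picked 532 regions, of which 90 (16.9%) had any positive fragment in replicate 2. Of those 90, 29 had one in HB, 19 in HB alone and 61 only at other stages. Applied to replicate 2 alone, the rule picked 302 regions. Of these 63 (20.9%) were positive in replicate 1, 38 of them in HB, 2 in HB alone and 25 only at other stages. In both directions most regions seen again were positive at a stage other than HB. The other 4 stages give more chances than HB alone, and a share expected from library size was not worked out. The same rule was also applied for ES, HE1, HE2 and HP. From replicate 1, in turn, 35 of 55, 39 of 102, 39 of 42 and 22 of 31 regions seen again were positive only at other stages. From replicate 2 these were 14 of 40, 67 of 309, 2 of 6 and 13 of 42.

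The share of positive fragments that fell in regions picked from the other replicate is a related measure over all stages. It counts fragments and not regions, so regions with many fragments weigh more. In HB, 182 fragments of replicate 1 fell in 38 picked regions, and 33 fragments of replicate 2 in 29. In replicate 1 this share was 0.467% for HB, 0.527% for ES, 0.533% for HE1, 0.504% for HE2 and 0.517% for HP. In replicate 2 it was 0.270% for HB, 0.211% for ES, 0.207% for HE1, 0.346% for HE2 and 0.288% for HP. HB was the lowest of the stages in replicate 1 and lay in the middle in replicate 2. The mean was 0.369% ± 0.139 (SD, n = 2) in HB and 0.391% ± 0.145 (SD, n = 8) in the other sorts, a sort being 1 stage of 1 replicate. The difference of -0.0227 percentage points did not pass an exact permutation test of the stage labels (two-sided p = 0.800; the smallest p for 2 against 8 sorts is 0.0222). With labels exchanged within replicates the exact permutation p was 0.640. By this share of fragments, preference for HB was not detected in the replicate left out of the rule. The number of regions seen again at each stage was not tested. The label of these regions as HB-only holds for the pooled lists by construction.

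**Figure D2:**
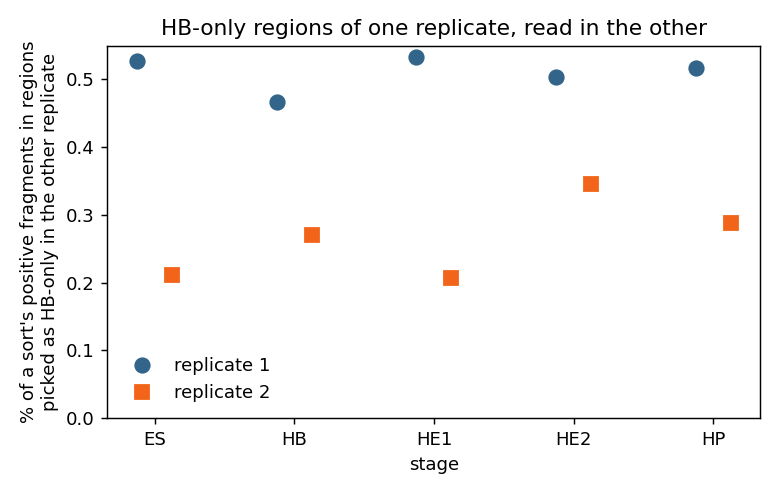
Share of the positive fragments of each sort (y axis, percent) that lies in regions called HB-only from the other replicate, by stage; points are single sorts. HB, at 0.467% in replicate 1 and 0.270% in replicate 2, does not stand above the other stages in either.

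Recurrence was low for single-stage regions in general. Among all 8574 regions with 2 or more HB fragments 14.5% were positive in HB in both replicates, and among the 7857 that were also positive at another stage 15.3% were. The shares seen in both replicates of their own stage were 5.22% of 517 ES-only, 2.28% of 3118 HE1-only, 0.577% of 520 HE2-only and 1.68% of 535 HP-only regions. A region with more fragments has more chances both to be seen in each replicate and to be seen at another stage, so the rule itself may lower the share. Regions were not matched on the number of fragments, and this was not tested.

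The HB-only regions with fragments in both replicates were led by the 2 regions near Hivep1 and Fam166b. The region 2318 bp upstream of Hivep1, a gene for a zinc-finger DNA-binding protein, lies between genes at chr13:42049402-42050004. It held 4 fragments in HB Low, 2 in Medium and 0 in High of replicate 1, and 1 in Low, 0 in Medium and 0 in High of replicate 2. It was thus seen mostly in the dimmer gates, and 1 fragment in HB Negative of replicate 1 was identical to a positive one. The region near Fam166b lies at chr4:43425572-43425979, centred in a coding exon, with 2 fragments in Medium and 2 in High of replicate 1 and 1 in Medium of replicate 2. No fragment of it was found in a Negative library of HB.

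Among the next regions of that kind, those near Camkk2, a kinase that activates AMPK, and Myo10, an unconventional myosin, each held 2 fragments in replicate 1 and 2 in replicate 2. For Camkk2 (chr5:122770854-122771311, in an intron) they were 1 in Medium and 1 in High, then 2 in High. For Myo10 (chr15:25740261-25740493, in an intron) all 4 were in High. The regions near Kcnc1, a potassium channel gene, Slc38a1, an amino acid transporter gene, D930007P13Rik, Slc39a10, a zinc importer gene, and Mirlet7i each held 2 fragments in replicate 1 and 1 in replicate 2. Of the 36 regions, 34 had fragments of the 2 replicates that overlapped each other, and 4 had an identical fragment in both.

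The region with the second highest number of separate fragments lies 2527 bp upstream of Dusp4, a phosphatase that turns off MAP kinases (chr8:34804633-34805533). It held 3 fragments in HB Low, 0 in Medium and 3 in High of replicate 1, and none in the 3 positive gates of replicate 2. Near Tmem119 (chr5:113796878-113797489) the values in replicate 1 were 2 in Low, 2 in Medium and 1 in High. The region upstream of Tle3, which encodes a Groucho-type co-repressor, held 3, 1 and 1 in Low, Medium and High. That downstream of the Syt16 start, a synaptotagmin gene, held 2, 0 and 3. Near Socs1, a suppressor of cytokine signalling, there were 0, 1 and 4, and near Mocs3, which acts in molybdenum cofactor synthesis, 0, 3 and 2. For these 5 regions no positive fragment came from replicate 2.

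Of the 25 regions with most separate fragments, 23 had none in the positive gates of replicate 2. Among the others in the list were regions near Slc30a1, a zinc exporter gene (1, 1 and 2 fragments in Low, Medium and High of replicate 1), Cdk13, a transcriptional kinase gene (1, 1 and 2), Hs6st1, a heparan sulfate sulfotransferase gene (0, 2 and 3), Galnt2, which starts O-linked glycosylation (0, 3 and 1), and Sall1, a zinc-finger transcription factor gene (0, 3 and 1). The nearest start site was 201286 bp away for Sall1 and 198512 bp away for Hs6st1. A nearest gene is a name for the position, and no measurement here links a region to the expression of that gene.

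**Figure D3:**
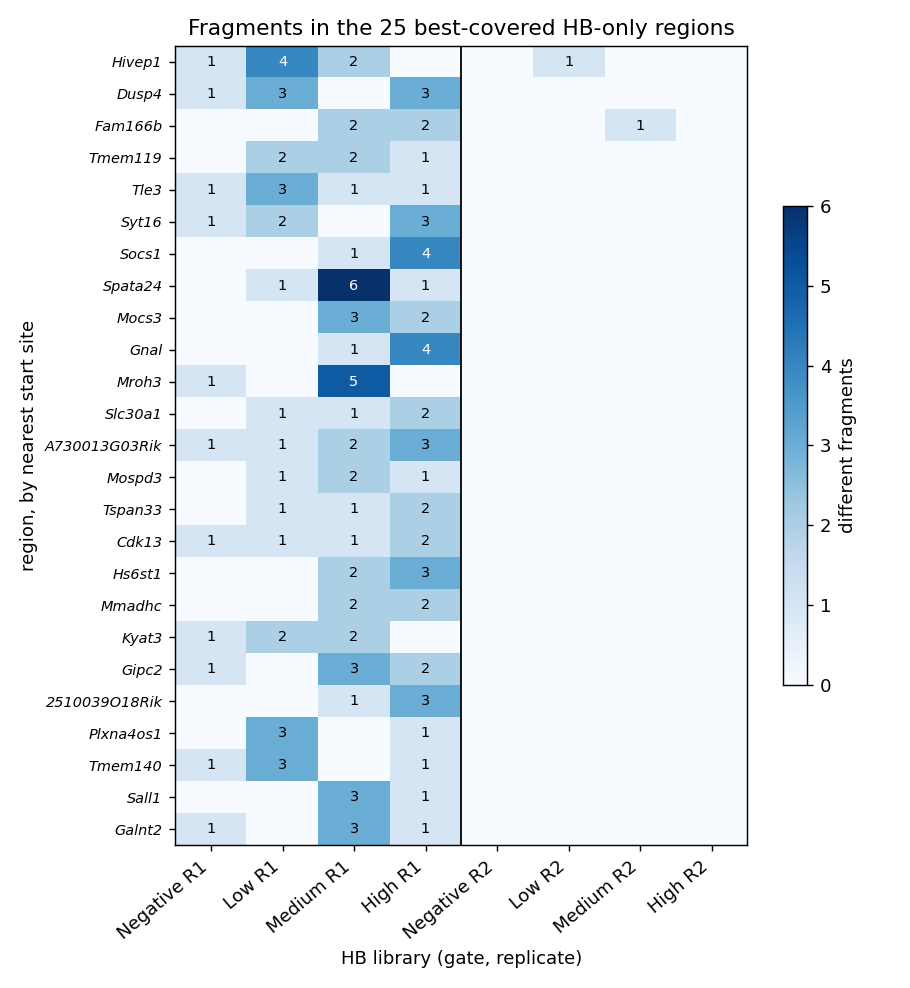
Different fragments in each HB library (columns, R1 and R2 are the replicates) for the 25 HB-only regions with most separate fragments (rows, named by the nearest start site); empty cells are 0. Replicate 2 has positive fragments in the rows of Hivep1 and Fam166b only, 1 in each.

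Brightness differed among the regions. In 407 of the 717 all fragments came from 1 gate, in 287 from 2 gates and in 23 from all 3. High alone accounted for 227, Low alone for 106 and Medium alone for 74. Of those seen in 2 gates, 180 combined Medium with High, 70 Low with High and 37 Low with Medium. The libraries differ in depth, so these counts cannot be read as strengths. HB High of replicate 1 had 16343 fragments and 3.47% of them in HB-only regions, against 5.48% of 5931 in replicate 2. Low had 2.54% of 7468 and 4.05% of 5157, and Medium 2.41% of 16152 and 2.07% of 3569. The highest share was thus in High in both replicates. Each of these libraries was used by the rule, and their shares are given without a test.

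Fragments of the Negative gates were not counted by the rule, but they took part in the merging that set the extent of each region. An HB Negative fragment was found in 83 of the 717 regions (11.6%), against 10.1% of all regions and 47.9% of the other HB regions, and in 17 of the 83 it was identical to an HB positive one. No fragment was found in any of the Negative libraries for 570 regions, while 81 held a Negative fragment of another stage. A fragment of ES Negative was found in 7.11% of the HB-only regions against 10.6% of all regions, of HE1 Negative in 1.53% against 22.0%, of HE2 Negative in 1.26% against 10.7% and of HP Negative in 2.93% against 23.0%. All regions include any seen in Negative gates alone, while HB-only regions need HB positive fragments and none positive elsewhere. Both the baseline and the rule thus bear on these contrasts, which are a description. Shares with a Negative fragment of another stage were low in the other single-stage sets as well. HE1 Negative was found in 1.35% of ES-only, 8.08% of HE2-only and 1.12% of HP-only regions. HP Negative was found in 3.09% of ES-only, 3.37% of HE1-only and 8.46% of HE2-only regions. Negative of the own stage was found in 19.1% of ES-only, 29.1% of HE1-only, 12.7% of HE2-only and 7.66% of HP-only regions. In replicate 1 the share of a Negative library that lay in HB-only regions was 1.07% for HB, 0.454% for ES, 0.00725% for HE1, 0.0474% for HE2 and 0.0709% for HP. In replicate 2 it was 0.654% for HB, 0.498% for ES, 0.613% for HE1, 0.440% for HE2 and 0.107% for HP. HB was the highest in each replicate, with a small margin over HE1 in replicate 2.

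The mean share was 0.861% ± 0.293 (SD, n = 2) in HB Negative and 0.280% ± 0.244 (SD, n = 8) in the other Negative libraries. The difference was 0.582 percentage points. It is given as a description with no test, because the rule had removed every region positive at another stage and so favours HB in this measure. With Negative fragments identical to a positive one left out it was 0.683 points. With the rule applied to replicate 2 alone it was 0.0110 points, to replicate 1 alone 1.19 points, and with 3 or more fragments required 0.247 points.

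**Figure D4:**
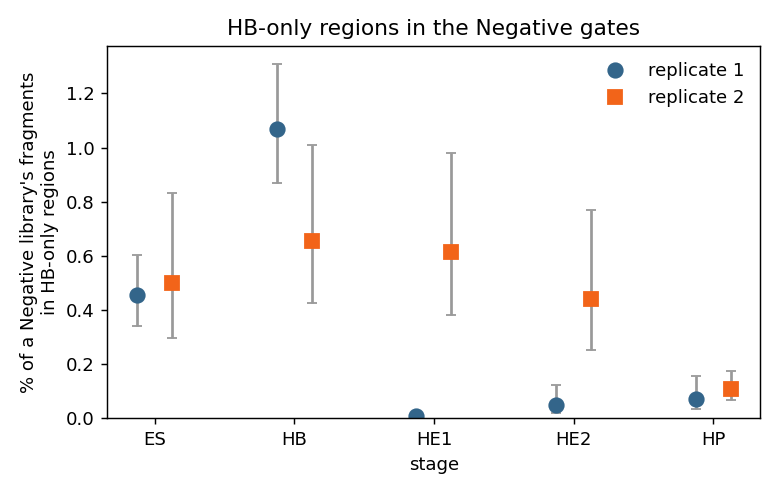
Share of each Negative library (y axis, percent of its fragments) that lies in HB-only regions, by stage; points are single libraries and bars are Wilson 95% intervals, which cover counting error only. HB stands highest in each replicate, at 1.07% and 0.654%, and the interval of replicate 2 overlaps those of ES, HE1 and HE2.

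By position, the HB-only regions were distal, as were nearly all fragments deposited. Of the 717, 329 were centred in an intron (45.9%), 347 between genes (48.4%), 19 in a coding exon (2.65%) and 22 in another exon (3.07%). Over all regions the shares were 46.3%, 48.5%, 3.06% and 2.10%. Within 1500 bp of a start site lay 3 (0.418%, against 0.548% of all regions), and 91 (12.7%, against 16.8%) lay over 100000 bp away. The median width was 257 bp, close to the 264 bp of all regions, while the other HB regions had a median of 635 bp. The rule favours regions with few fragments, and width grows with their number.

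Sequence and position were compared with the other HB regions within each of the 6 HB positive libraries. Fragments in HB-only regions had a mean GC content of 51.7% ± 3.10 against 55.7% ± 1.86 (SD, n = 6 libraries), lower in 6 of 6 (difference -3.99 points, exact permutation test by sign exchange, p = 0.0312, the smallest for 6 libraries). In replicate 1 the GC content was 54.6% in Low, 54.7% in Medium and 54.2% in High, against 57.3%, 57.5% and 57.2%. In replicate 2 it was 48.0%, 49.5% and 49.4%, against 53.5%, 54.8% and 54.0%. The groups did not overlap within a replicate. The difference was -1.93 points with near-identical fragments counted once by the rule and -1.87 points against all HB fragments outside the HB-only regions (exact permutation p = 0.0312 for each). In the first of these settings the 225 regions resting on 1 separate fragment joined the other HB regions, and all fragments still entered the means. It is thus not a comparison free of near-identical fragments. With the rule applied to replicate 2 alone the difference was -2.12 points and to replicate 1 alone -2.46 points, where 3 libraries cannot give a p below 0.25. Against the 416 regions that missed the rule by 1 fragment, the difference was -1.48 points (exact permutation p = 0.0625). Counted by region, the median GC content was 52.5% in HB-only and 53.2% in other HB regions. It was 49.7% over all regions, 52.0% in ES-only, 48.8% in HE1-only, 49.7% in HE2-only and 50.7% in HP-only regions, so HB-only regions were lower than the other HB regions but not than regions at large. The 3 libraries of a replicate come from the same cells and share fragments, so these p-values measure the spread between libraries of only 2 cultures.

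The median distance from the nearest start site was 21987 bp ± 5860 against 16225 bp ± 2113 (SD, n = 6 libraries), greater in 6 of 6 by a mean of 5762 bp (exact permutation p = 0.0312). Against the regions that missed the rule by 1 fragment it was 5914 bp (exact permutation p = 0.0312). When the rule counted near-identical fragments once, the difference was 602 bp (exact permutation p = 0.750). That setting moved the regions of 1 separate fragment into the other HB regions, so it mixes HB-only regions into both groups. Counted by region, the median distance was 20709 bp in HB-only and 16364 bp in other HB regions, against 24857 bp over all regions. It was 21955 bp in ES-only, 22398 bp in HE2-only and 20577 bp in HP-only regions, and 25922 bp in HE1-only regions. HB-only regions were thus farther than the other HB regions and nearer than regions at large. The median fragment length was 193 bp ± 23.1 in HB-only regions and 214 bp ± 47.6 in the others, a difference of -20.8 bp that did not pass the test (exact permutation p = 0.375).

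Motifs of factors that act in mesoderm and blood formation were sought in 200 bp windows centred on the fragments. With 6 libraries the smallest exact permutation p is 0.0312, so a motif could pass Benjamini-Hochberg adjustment only if most of the 16 reached it. After this adjustment 0 of 16 motifs passed in HB-only against other HB regions, and 3 had an unadjusted exact permutation p under 0.05. These were CTCF, the insulator protein (1.54% ± 0.665 of windows against 4.70% ± 1.83, SD over 6 libraries), AP-1, the FOS and JUN dimer that responds to signalling (3.57% ± 1.41 against 5.81% ± 1.53), and PU.1, an ETS factor of blood cells (1.11% ± 0.700 against 2.09% ± 0.555). Each was lower in 6 of 6 libraries, with an exact permutation p of 0.0312 and an adjusted p of 0.167. With near-identical fragments counted once by the rule, the regions this dropped joined the other HB regions. The AP-1 difference was then -0.426 points in place of -2.24 (exact permutation p = 0.719). The CTCF difference of -3.16 points was then -2.52 (exact permutation p = 0.0938). It was -1.06 points against regions that missed the rule by 1 fragment (exact permutation p = 0.0938), and its direction turned, to 1.20 points, without replicate 1 (exact permutation p = 0.500). CTCF matches in region windows were in 1.26% of HB-only regions, 7.90% of other HB regions and 2.01% of all regions.

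**Figure D5:**
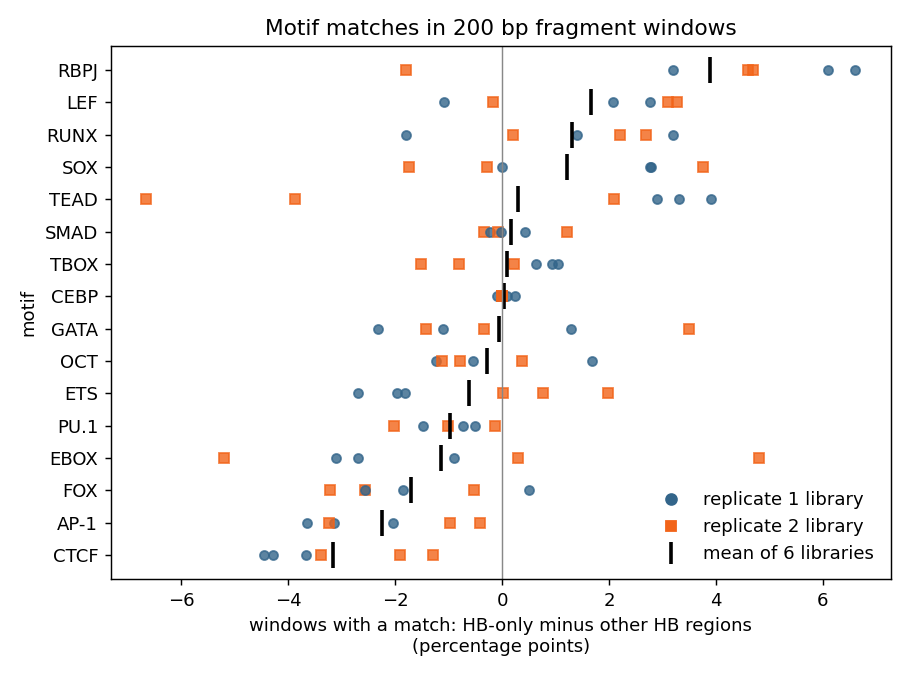
Difference in the share of 200 bp windows with a motif match between HB-only and other HB regions (x axis, percentage points) for 16 motifs; points are the 6 HB positive libraries and black bars their mean. All 6 points are below 0 for CTCF, AP-1 and PU.1, and no motif passed the test after adjustment. A few motifs at the smallest p could not pass it.

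The remaining 13 motifs had unadjusted exact permutation p-values from 0.0625 to 0.906. Among these, matches for LEF, the factor at the end of WNT signalling, were found in 3.98% ± 2.16 of windows against 2.32% ± 0.521, higher in 4 of 6 libraries. FOX matches, of forkhead factors, were found in 3.68% ± 1.41 against 5.38% ± 0.374, lower in 5 of 6 libraries. RBPJ matches were found in 22.1% ± 3.09 against 18.3% ± 1.46, higher in 5 of 6 libraries by a mean of 3.89 points. LEF, FOX and RBPJ did not pass the test (exact permutation p = 0.125, 0.0625 and 0.0625 in turn).

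Against the single-stage regions of the other stages, which the same kind of rule picked, 0 of 16 motifs passed after adjustment and 2 had an unadjusted exact permutation p under 0.05. The smallest exact permutation p was 0.0222, so passing required many of the 16 motifs to reach it together. FOX matches were in 3.82% and 3.33% of HB windows (replicates 1 and 2), below all of the other 8 sorts, which ran from 5.63% to 8.39%. LEF matches were in 3.82% and 5.33%, above the other 8, which ran from 1.50% to 3.65%. The mean difference was -3.43 points for FOX and 2.04 points for LEF, each with an exact permutation p of 0.0222 and an adjusted p of 0.178. With near-identical fragments counted once by the rule of each stage, the FOX difference was 0.0657 points (exact permutation p = 1.00), so its direction is not stable. That for LEF was then 2.71 points (exact permutation p = 0.111). Over whole fragments the LEF difference was 0.560 points (exact permutation p = 0.444), and with replicate 2 left out 0.572 points (exact permutation p = 0.800). AP-1 matches were in 4.00% and 2.83% of HB windows and ranged from 3.48% to 17.9% in the other sorts, with no difference that passed (exact permutation p = 0.133).

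Genes of lists linked to this differentiation were rarely the nearest to an HB-only region. Signalling genes were nearest to 6 regions, 0.837% of the 717 against 0.441% of all regions. These were Smad1 and Smad6, an effector and an inhibitor of BMP signalling, the latter nearest to 2 regions, Dusp6, an ERK phosphatase, Lef1, a WNT effector, and Ccn2, a matricellular protein. The Smad1 region (chr8:79374467-79374656, in an intron) and the Dusp6 region (chr10:99268802-99269253, between genes) each held 3 separate fragments, all of replicate 1, and the Lef1 region (chr3:131106134-131106525) held 2. Of the Smad6 regions, 1 had 2 separate fragments of replicate 1 and the other rested on 1 separate fragment of replicate 2.

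Blood genes were nearest to 3 regions (0.418% against 0.234% of all regions), each with 2 fragments as deposited. They were Zfpm1, a GATA1 cofactor, Runx2, and Itga2b, which encodes the CD41 antigen. The Itga2b region (chr11:102498126-102498282) rested on 1 separate fragment of replicate 2. Endothelial genes were nearest to 1 region (0.139% against 0.189%), in an intron near Flt1, a VEGF receptor gene, at chr5:147722667-147722910, with 2 fragments of replicate 1 and 1 HB Negative fragment. The mesoderm and hemangioblast list had 2 regions (0.279% against 0.380%). That near Tbx3, a T-box factor gene, held 3 separate fragments in 3 gates of replicate 1 (chr5:119660563-119660848), and that near Meis1, a homeobox gene, rested on 1 separate fragment of replicate 2.

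Pluripotency genes were nearest to 2 regions (0.279% against 0.205%), near Sall4, a zinc-finger factor gene, and Tdgf1, a NODAL co-receptor gene. Synapse genes, a list with no tie to this lineage, also had 2 (0.279% against 0.261%), near Rbfox1 and Gabrb1. The Rbfox1 region (chr16:5927242-5927462) had 6 fragments as deposited, all in 1 gate of replicate 1, and 1 separate fragment. With 1 to 6 regions per list, the shares had wide intervals, such as 0.384% to 1.81% (Wilson, 95%) for signalling, which lies around the value of all regions.

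The 717 regions were spread over 683 nearest genes, of which 31 were nearest to 2 or more regions and 3 to 3. The 3 were A730013G03Rik, Med13l, a Mediator kinase module gene, and Sall1. Their regions held 4, 2 and 2 fragments, 3, 2 and 2, and 4, 2 and 2 in turn.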

How the data were processed

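The deposited values were start and end coordinates of unique fragments in mm10, 1 list for each of 40 libraries (5 stages, 4 gates, 2 replicates), with no read count or other score. Per the labels and the methods, the authors trimmed reads with Trim Galore, aligned them with Bowtie2, kept pairs of high mapping quality with SAMtools, and used bedtools and HOMER downstream. The methods also name filters against fragments of untransfected cells, for DNase I sites, for an ATAC peak of the same stage and for distance from start sites. Whether the deposited lists had passed these was not given in the sources used here. Few regions lay near a start site: 411 of 75043 (0.548%) were within 1500 bp. The distal position of the HB-only regions is thus a trait of the lists as a whole. If the stage filter was applied, a region without a peak at a stage would be absent from its lists whatever its reporter activity. This was not tested. Libraries held 654 to 51146 fragments (458486 in all, 354627 different) of 66 to 599 bp. The HB positive libraries held 3569 to 16343.

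Fragments overlapping by 1 bp or more were merged. Sequence, repeats, start sites and exons came from GRCm38 RefSeq (45756 curated transcripts), and 36 fragments on scaffolds were left out of these measures. Low, Medium and High of 1 stage and replicate (a sort) were joined, each different fragment counted once. Counting near-identical fragments once changed the choice of regions alone, and all fragments of a region still entered the measures. Within HB the regions dropped in this way counted as other HB regions. The motif letters were TGACTCA or TGAGTCA (AP-1), GGAATG (TEAD), TGTGGT (RUNX), AGATAAG for GATA factors, CAGGAAGT or CCGGAAGT (ETS), GAGGAAGT (PU.1), ACAATGG or ACAAAGG (SOX), ATGCAAAT (OCT), CAGCTG (EBOX), AGGTGTGA (TBOX), TGTTTAC or TGTTTGC (FOX), CTTTGAT (LEF), GTCTAGAC (SMAD), TTGCGCAA (CEBP), TGGGAA (RBPJ) and the CTCF consensus, on both strands. RBPJ letters can overlap those of the ETS family.

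Groups of stages were compared by exact permutation of stage labels over the 10 sorts (45 arrangements, 25 within replicates), and HB-only with other HB regions by exchange of signs within the 6 HB positive libraries (64 arrangements), all two-sided, with Benjamini-Hochberg adjustment over 16 motifs. The planned permutation test of the Negative-gate share is not reported, since the rule bears on it. Intervals are Wilson (95%). The regions named were the 25 with most separate fragments, the 10 with most in both replicates, and those nearest to genes of the lists. 1 region that the rule names is not reported here. The motifs named were chosen after their values were seen, and the members and lists with earlier results of these data known. The region, rule and permutation functions were tested on simulated data (Python 3.11.15, pandas 2.3.3, numpy 2.4.6). The labels do not say whether the replicates came from separate transfections, so p-values measure the spread between these samples.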

Additional observations from a re-analysis of the deposited data

How the results depend on the processing

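The number of HB-only regions was 717. It ranged from 302 to 532 when 1 replicate was left out entirely, was 179 with 3 or more HB fragments and 8085 with 1 or more. With the HB libraries of replicate 1 left out of the rule it was 241 and with those of replicate 2 it was 461; with any other single sort left out it lay between 726 and 986. These last settings, and the comparison with regions that missed the rule by 1 fragment, were chosen after seeing the data.

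The Negative-gate difference lay between 0.0110 and 1.19 points with 1 replicate left out, and was 0.247 with 3 or more fragments. The cross-replicate difference was -0.0529 points for the values of replicate 1 and 0.00749 for those of replicate 2. These are the 2 directions of the main result, as the rule was read in the other replicate each time. No replicate can be left out of this measure. Under the other settings run the difference stayed below 0. The replicate block, with labels exchanged within replicates, changed no call: exact permutation p was 0.640 for the cross-replicate difference of -0.0227, and 0 of 16 motifs passed against other single-stage regions. The smallest exact permutation p there was 0.0400, so a motif could pass only if most of the 16 reached it.

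The GC difference lay between -2.46 and -2.12 points with 1 replicate left out and was -1.48 against regions that missed the rule by 1 fragment. The distance difference lay between 1556 and 2054 bp with 1 replicate left out. It was 19518 bp with 3 or more fragments and 602 bp with near-identical fragments counted once by the rule. Against all HB fragments outside the regions it was 2703 bp, and over 1500 bp from a start site 5041 bp. None of these passed the test. With 1 replicate left out it could not be passed, as 3 libraries cannot give an exact permutation p below 0.25. The difference did pass at 50 bp overlap (5186 bp), without HE1 Medium of replicate 1 (5715 bp) and against regions that missed the rule by 1 fragment (5914 bp). Each of these had an exact permutation p of 0.0312. The length difference lay between -100.0 and 10.0 bp with 1 replicate left out and was 3.50 bp against all HB fragments outside the regions. No motif passed after adjustment under any setting run.

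Among named motifs, the CTCF difference lay between -3.61 and 1.20 points with 1 replicate left out. Against other single-stage regions it was near 0, from -0.124 to 2.18 with 1 replicate left out, 0.218 with 3 or more fragments, 0.144 at 50 bp overlap, 0.150 without HE1 Medium of replicate 1 and 0.0204 over whole fragments. The FOX difference was 0.398 points within HB and 0.0657 against other single-stage regions with near-identical fragments counted once by the rule. The cause of these changes was not tested. Of the 717 regions 538 hold 2 fragments, and no setting matched depth.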
